A study of Mus musculus with 14 samples.

Results

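The genes described here are the chemokines and their receptors: all protein-coding genes whose symbol starts with Ccl, Cxcl, Ccr or Cxcr and a digit, with Cx3c, or with Ackr and a digit. The bulk table held 65 such entries among 40481 genes, which carry 60 symbols because Ccl19, Ccl21a, Ccl21b and Ccl27 have more than 1 entry, most of the extra ones on unplaced scaffolds. They comprise 30 CC ligands, 12 CXC ligands, 1 CX3C ligand, 18 signalling receptors and 4 atypical receptors. The single-nucleus tables held 65 entries among 32285 genes. The material was muscularis, the muscle coat of the gut wall, of C57BL/6 mice. The label "Carmn iKO" is called KO here, and the label "WT mTmG", which names a fluorescent reporter allele, is called WT. There were 3 KO and 3 WT bulk libraries from colon, 3 KO and 3 WT from jejunum, and 1 KO and 1 WT library of nuclei from colon. Carmn is a long noncoding RNA gene of smooth muscle. No source used here gives the cells in which it was deleted, the deleted stretch, an inducing treatment or the age of the mice. Bulk libraries carry a tag (m1, t1, t4, t6 or t7) that serves as their name, and nothing in the labels says whether libraries of a group came from separate mice, so p-values measure only the spread between these libraries.

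Chemokines are small secreted proteins that direct the migration of leukocytes and of some other cells through receptors coupled to G proteins. Atypical receptors bind chemokines without that signalling and remove or relocate them. In the gut muscularis, chemokines are known above all for guiding monocytes that become resident macrophages, while ligands such as Cxcl1, Cxcl2, Cxcl3 and Cxcl5 act on Cxcr2 of neutrophils and Cxcl13 acts on Cxcr5 of B lymphocytes. Many inflammatory chemokine promoters hold sites for NF-kB, a transcription factor family switched on by cytokines and microbial products.

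Promoter stretches are shown for 5 ligands that the results turn on. Cxcl1, Cxcl2 and Cxcl3 lie within 1 locus on chromosome 5 and reached high levels together in 1 library. Cxcl13 and Cxcl14 had the same direction between KO and WT in both tissues. Each stretch holds the 120 bases before the gene start, 5′ to 3′ on the gene's strand, from the RefSeq table of build GRCm38.p6, at chr5:90891125-90891244 (plus), chr5:90903779-90903898 (plus), chr5:90785981-90786100 (plus), chr5:95956819-95956938 (plus) and chr13:56296552-56296671 (minus). Capitals mark matches to the 10-base NF-kB consensus on either strand.
Cxcl1: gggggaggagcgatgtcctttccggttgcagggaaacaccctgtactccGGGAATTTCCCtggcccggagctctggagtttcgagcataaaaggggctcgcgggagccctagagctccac
Cxcl2: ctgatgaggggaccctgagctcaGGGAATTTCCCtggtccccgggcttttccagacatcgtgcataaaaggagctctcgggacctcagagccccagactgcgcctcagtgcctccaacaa
Cxcl3: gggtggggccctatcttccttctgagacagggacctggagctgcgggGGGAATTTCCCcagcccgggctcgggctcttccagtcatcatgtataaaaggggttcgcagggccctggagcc
Cxcl13: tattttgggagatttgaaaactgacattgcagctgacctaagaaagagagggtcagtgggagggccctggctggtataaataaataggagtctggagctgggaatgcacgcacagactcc
Cxcl14: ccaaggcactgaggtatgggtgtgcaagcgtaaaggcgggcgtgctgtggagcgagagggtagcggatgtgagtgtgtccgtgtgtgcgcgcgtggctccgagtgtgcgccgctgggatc
The capitals show 1 shared run of bases (overlapping matches were joined) in Cxcl1, Cxcl2 and Cxcl3. No match lay in the stretch of Cxcl13 or of Cxcl14.

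Total counts ran from 24254905 to 44315104 per bulk library. Levels are given as CPM, the counts scaled to the library total times its TMM factor, which was 0.813 in KO jejunum m1 and 0.951 to 1.10 elsewhere. Carmn was at 461, 304 and 718 CPM in the KO colon libraries m1, t4 and t6 against 252, 171 and 351 in WT colon t1, t6 and t7. In jejunum it was 996, 817 and 909 CPM in KO m1, t1 and t4 against 240, 206 and 326 in WT t1, t6 and t7. The counts of the targeted gene thus go against the KO label, and KO below means the libraries labelled KO. The 10 smooth muscle markers summed to 34795 to 93527 CPM, so all 12 libraries carried the marker set of the labelled tissue. Markers of other cells were present in each library: the sum over 9 macrophage markers ran from 255 to 2392 CPM and that over 8 epithelial markers from 80.2 to 3381 CPM. In such bulk samples fewer cells of a type and less RNA per cell cannot be told apart. KO colon t4 stood apart for the genes described here. The filter on low counts left 47 chemokine and receptor genes among 20886 genes tested. KO colon t4 was the highest of the 12 libraries for 17 of the 47 (12.7% of all genes tested). WT colon t6 was the highest for 10 of the 47 (1836 of all 20886 genes). KO jejunum m1 was the highest for 9 (19.1% of the 47), near its share of 15.9% of all genes tested.

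Per length, the highest of these genes over the 12 libraries was Ccl6, a CC ligand of myeloid cells, at a mean of 47.8 RPKM (CPM divided by the exon length in kilobases). Ccl8, a ligand that attracts monocytes among other leukocytes, followed at 28.1 RPKM and Cxcl14, a CXC ligand made by many stromal and epithelial cells, at 23.2 RPKM. Next came Ccl11, the eosinophil ligand eotaxin, at 12.3 RPKM and Ackr4, which scavenges Ccl19, Ccl21 and Ccl25, at 12.2 RPKM. Cxcl2, Ccl7, Ccl2, Cxcl13 and Ccl9 had means of 11.3, 10.7, 10.6, 9.74 and 9.19 RPKM. Without KO colon t4 the means of Cxcl2, Ccl7, Ccl2 and Cxcl13 were 0.230, 3.92, 4.89 and 4.87 RPKM, so that of Cxcl2 rests on this 1 library. At group level, Ccl8 led in WT colon with 64.2 ± 29.7 RPKM (SD, n = 3), Cxcl14 in WT jejunum with 50.2 ± 2.41, and Ccl6 in KO colon with 56.1 ± 64.95 and in KO jejunum with 85.2 ± 63.5. Of the 65 entries, 47 passed the filter: 17 CC ligands, 10 CXC ligands, Cx3cl1, 15 receptors and the 4 atypical receptors. The other 18 had no count (5 entries) or few, with at most 0.609 CPM in any library apart from Cxcl3.

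The comparison of KO with WT asks which genes differ between genotypes within a tissue. No chemokine or receptor gene passed an adjusted p of 0.05 in either tissue with edgeR's quasi-likelihood test over all genes (0 of 47 in colon, where 0.388% of all genes passed, and 0 of 47 in jejunum, where 0.215% passed). At an unadjusted p below 0.05 there were 15 of 47 in colon (14.5% of all genes tested), 9 of them higher in KO (6.7%) and 6 lower (7.79%). In jejunum there were 9 of 47 (13.2% of all genes tested), 8 higher (7.52%) and 1 lower (5.7%). DESeq2 put 7 of 38 in colon past its adjusted threshold (4.53% of genes), namely Cxcl13, Cxcr4 and Cxcl1 higher and Ackr4, Ccl8, Cxcl9 and Cxcl14 lower. In jejunum it put 4 of 38 past (3.85% of genes), Cxcl13, Cxcr4, Ccl20 and Ccl6, all higher. limma's voom test gave 0 in both tissues (0.455% of all genes in colon and 0.364% in jejunum). The 3 KO and 3 WT libraries did not overlap for 10 members in colon (19.2% of all genes tested), 5 higher in KO (8.79%) and 5 lower (10.4%). In jejunum they did not overlap for 14 members (22.2%), 12 higher in KO (11%) and 2 lower (11.2%). The median log2 difference of the 47 genes was 0.01 in colon and 0.73 in jejunum, beside 0.00 and 0.02 over all genes tested. The fitted difference was above 0 for 24 of 47 in colon (50.3% of all genes) and 34 of 47 in jejunum (51.5%). The 2 contrasts have no library in common, but nothing in the labels says whether colon and jejunum libraries came from the same mice.

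Cxcl13, the ligand that draws B lymphocytes through Cxcr5 (GRCm38 chromosome 5, 95956951 to 95961068, plus strand), had the smallest p of these genes in both tissues. In colon it was at 10.1, 72.9 and 5.55 CPM in KO m1, t4 and t6 against 1.85, 3.30 and 2.93 in WT t1, t6 and t7. In jejunum it was at 10.6, 5.33 and 20.2 CPM in KO m1, t1 and t4 against 0.810, 0.320 and 0.613 in WT t1, t6 and t7. All 6 KO libraries lay above all 6 WT libraries, and KO colon t4 was the highest of all. The log2 difference was 3.45 (SE 0.91) in colon and 4.38 (SE 0.97) in jejunum, and neither passed the test (edgeR adjusted p = 0.141 and 0.107). Without KO colon t4 the jejunum contrast passed (log2 4.38, edgeR adjusted p = 0.00907). That library is in neither jejunum group but enters the shared estimate of the spread. In colon the difference was 1.54 on the log2 scale without it. Over the 19 alternatives tried, the jejunum adjusted p ran from 8.93e-06 to 0.329 and the colon one from 0.000614 to 0.382. The summed B lymphocyte markers were 22.0 to 37.8 CPM in KO colon and 38.2 to 51.6 CPM in WT colon, without overlap and lower in KO. In jejunum they were 33.8 to 185 CPM in KO and 45.4 to 64.3 CPM in WT. The highest value was in KO jejunum t1, where Cxcl13 was the lowest of the KO jejunum libraries. The part of B lymphocytes in the Cxcl13 values was not tested.

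Cxcl14 (chromosome 13, 56288643 to 56296551, minus strand) ran the other way. In colon it was at 8.90, 16.2 and 7.07 CPM in KO m1, t4 and t6 against 41.1, 23.5 and 23.3 in WT t1, t6 and t7. In jejunum it was at 18.2, 47.8 and 48.4 CPM in KO m1, t1 and t4 against 86.6, 94.4 and 94.0 in WT t1, t6 and t7. Within each tissue every KO library lay below every WT library. The log2 difference was -1.45 (SE 0.40) in colon and -1.26 (SE 0.40) in jejunum (edgeR adjusted p = 0.148 and 0.208). Without KO colon t4 and KO jejunum m1 together, a check added after the data were seen, the colon difference was -1.86 and passed (edgeR adjusted p = 0.0115, in a range of 0.0115 to 0.423 over 19 alternatives). The 10 smooth muscle markers had fitted differences below 0 in colon (median log2 -0.72) and a median of 0.14 in jejunum. None passed edgeR's test, while DESeq2 put 3 of the 10 past its threshold in colon (4.53% of genes) and 1 in jejunum (3.85%). The part of these markers in the Cxcl14 values was not tested. Cxcl14 was the one member whose groups did not overlap with KO lower in both tissues, a pattern of 3.2% of all genes tested.

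Among signalling receptors the one with the smallest p was Cxcr4 (chromosome 1, 128588199 to 128592293, minus strand), the receptor of Cxcl12 on leukocytes, endothelium and progenitor cells. In colon it was at 8.34, 16.9 and 10.5 CPM in KO m1, t4 and t6 against 3.95, 3.38 and 1.87 in WT t1, t6 and t7. In jejunum it was at 18.0, 11.8 and 7.88 CPM in KO m1, t1 and t4 against 4.49, 4.81 and 0.986 in WT t1, t6 and t7. The groups did not overlap in either tissue, with log2 differences of 1.95 (SE 0.55) in colon and 1.87 (SE 0.55) in jejunum (edgeR adjusted p = 0.152 and 0.186). Cxcl12 itself, which holds stem and immune cells in place, was nearly level: 41.3, 59.5 and 38.2 CPM in KO colon against 45.2, 42.4 and 50.6 in WT colon, and 45.1, 37.6 and 31.8 in KO jejunum against 55.4, 56.1 and 37.1 in WT jejunum. Its groups overlapped, with log2 differences of 0.01 (SE 0.22) and -0.38 (SE 0.22). The third gene of this axis, the scavenger Ackr3, was at 28.9, 27.4 and 31.1 CPM in KO colon against 23.6, 17.1 and 23.0 in WT colon, and overlapped in jejunum. Groups did not overlap with KO higher in both tissues for 3 members, Cxcl13, Cxcr4 and Ackr1, as for 2.9% of all genes tested. Ackr1, a receptor that carries chemokines across venular endothelium, was at 10.7, 10.9 and 9.95 CPM in KO colon against 9.02, 4.34 and 7.34 in WT colon. It was at 3.71, 5.85 and 6.63 CPM in KO jejunum against 3.35, 3.70 and 2.69 in WT jejunum. Ackr1 overlaps the gene Cadm3, so its counts are uncertain to that extent.

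**Figure D1:**
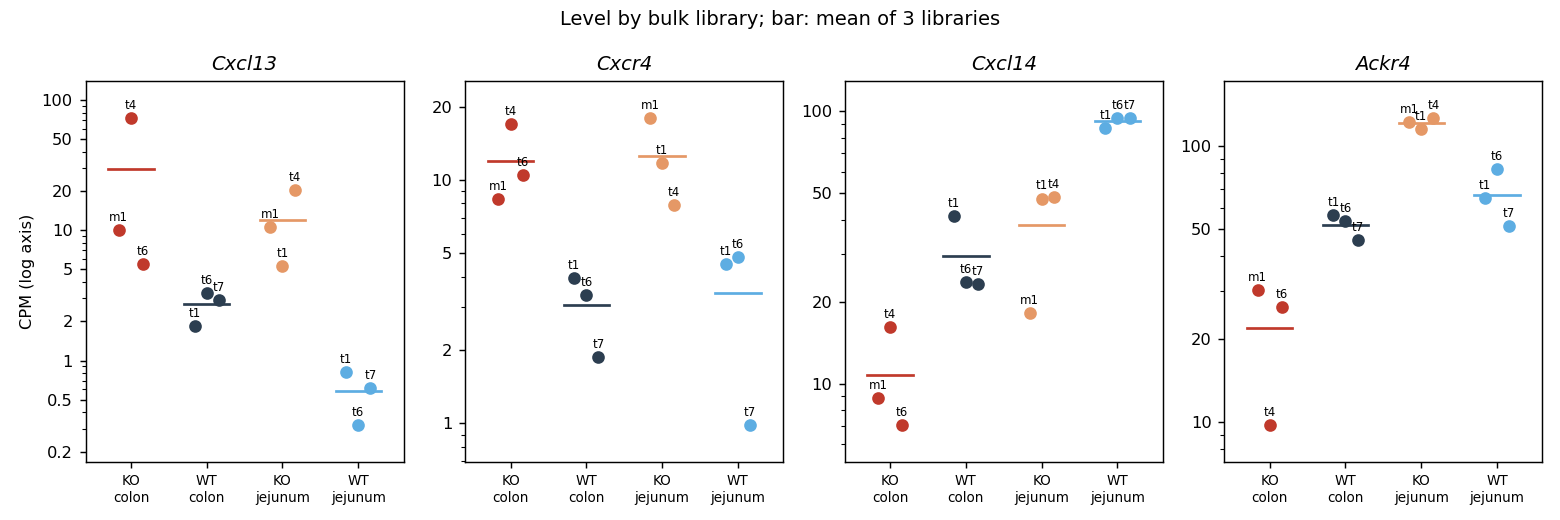
CPM (log axis) of Cxcl13, Cxcr4, Cxcl14 and Ackr4 in each of the 12 bulk libraries; points are libraries with their tags, bars are means of 3. Cxcl13 and Cxcr4 lie higher in KO and Cxcl14 lower in both tissues without overlap, while Ackr4 is lower in KO colon (9.78 to 30.2) and higher in KO jejunum (116 to 127).

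Ackr4 (chromosome 9, 104084157 to 104126933, minus strand) had opposite directions in the 2 tissues. In colon it was at 30.2, 9.78 and 26.1 CPM in KO m1, t4 and t6 against 56.2, 53.8 and 45.6 in WT t1, t6 and t7. In jejunum it was at 122, 116 and 127 CPM in KO m1, t1 and t4 against 64.9, 82.9 and 51.5 in WT t1, t6 and t7. The KO colon libraries were all below the WT ones and the KO jejunum libraries all above, with log2 differences of -1.24 (SE 0.33, edgeR adjusted p = 0.141) and 0.87 (SE 0.33, edgeR adjusted p = 0.293). Opposite directions without overlap were seen for 0.268% of all genes tested. The difference of the genotype effects between colon and jejunum was -2.11 on the log2 scale (SE 0.47), with an unadjusted p of 0.000778 and an edgeR adjusted p of 0.907. DESeq2 gave an adjusted p of 0.0308 for it (1 of 45 members and 0.137% of genes passed), the low end of a range up to 1 over 19 alternatives. In KO colon t4, where Ackr4 was lowest, the smooth muscle marker sum was also the lowest of the 12. The sum of 6 interstitial cell of Cajal markers was 240 CPM there against 433 to 832 CPM in the other libraries. In KO colon m1 and t6 the Cajal sum was 496 and 466 CPM, inside the 433 to 519 CPM of WT colon. Their smooth muscle sums were 38868 and 47184 CPM, below the 52761 to 76756 CPM of WT colon. The part of these cells in the Ackr4 values was not tested. The gene overlaps Acad11 and 2 further gene models, so its counts are uncertain to that extent.

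**Figure D2:**
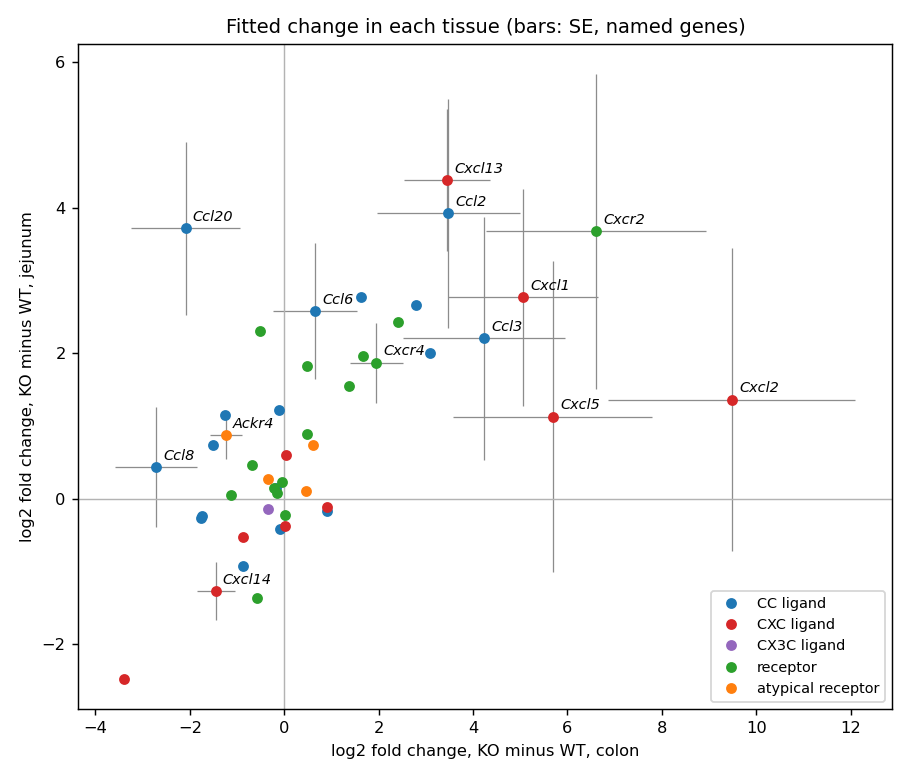
Fitted log2 difference of KO minus WT in colon (x axis) and jejunum (y axis) for the 47 tested genes, coloured by family; bars are standard errors for the named genes. Cxcl2 lies farthest right at 9.49, which rests on 1 library, and Ackr4 (-1.24, 0.87) and Ccl20 lie in the upper left.

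No member passed in the difference of effects between tissues with edgeR (0 of 47, and 0% of all genes), and 5 of 47 had an unadjusted p below 0.05 (4.16% of all genes). They were Ackr4, Ccl20, Ccl8, Cxcl2 and Cxcr6. Ccl20, the ligand of Ccr6, was at 0.217, 0.208 and 0.152 CPM in KO colon m1, t4 and t6 against 0.865, 1.59 and 0 in WT t1, t6 and t7, and at 4.42, 4.40 and 0.362 CPM in KO jejunum m1, t1 and t4 against 0.295, 0.291 and 0.107 in WT t1, t6 and t7. The jejunum groups did not overlap, but KO t4 lay close to the WT libraries. The differences were 3.72 (SE 1.19, edgeR adjusted p = 0.214) in jejunum and -5.81 (SE 1.65, edgeR adjusted p = 0.941) for the difference between tissues. Ccr6 itself had at most 0.385 CPM and was not tested.

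In colon, Ccl8 had the largest negative difference of a gene whose groups did not overlap. It was at 8.05, 3.54 and 3.42 CPM in KO m1, t4 and t6 against 18.8, 48.9 and 30.6 in WT t1, t6 and t7. The log2 difference was -2.71 (SE 0.87, edgeR adjusted p = 0.198), and DESeq2 gave an adjusted p of 0.0121, in a range up to 0.449. Cxcr6, the receptor of Cxcl16 on T lymphocytes, was at 1.91, 1.18 and 1.57 CPM in KO colon against 2.66, 4.64 and 2.93 in WT colon, again without overlap (log2 -1.13, SE 0.37, edgeR adjusted p = 0.194). Cxcr6 overlaps the gene Fyco1, so its counts are uncertain to that extent. The levels of its ligand Cxcl16 overlapped between the genotypes in both tissues. Ccl25, a ligand of gut epithelium that acts on Ccr9, was at 2.54, 2.60 and 2.99 CPM in KO colon against 17.1, 8.68 and 1.72 in WT colon, where WT t7 lay below all KO libraries. Without WT colon t7 its difference passed (log2 -2.23, edgeR adjusted p = 0.0442, against -1.76 and 0.229 with it). WT colon t7 also had the lowest epithelial marker sum, 80.2 CPM, against 1040 to 3381 CPM in the other colon libraries, and the part of this in the result was not tested. Cxcl9, an interferon-induced ligand of Cxcr3, was at 0.890, 0.208 and 0.101 CPM in KO colon against 1.33, 11.1 and 0.624 in WT colon, with a fitted difference of -3.40 (SE 1.37). Without WT colon t6 the difference was -1.25.

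In jejunum the genes with small p beside those above were myeloid ligands. Ccl6 was at 279, 57.1 and 123 CPM in KO m1, t1 and t4 against 29.2, 40.4 and 7.06 in WT t1, t6 and t7 (log2 2.58, SE 0.94, edgeR adjusted p = 0.280). Ccl9, another CC ligand that acts on Ccr1, was at 89.2, 16.02 and 33.7 CPM against 8.58, 10.2 and 1.49 (log2 2.77, SE 1.09, edgeR adjusted p = 0.315). Ccl2, the main ligand of Ccr2 on monocytes, was at 41.3, 1.90 and 2.60 CPM against 0.958, 1.34 and 0.693 (log2 3.92, SE 1.58, edgeR adjusted p = 0.326). None of the 3 overlapped between genotypes, KO m1 was the highest in each, and for Ccl2 the other KO libraries lay near WT. The macrophage marker sum was 2392, 951 and 1309 CPM in KO jejunum m1, t1 and t4 against 589, 790 and 255 in WT t1, t6 and t7. It thus ran in the same order of libraries as Ccl6 and Ccl9 within KO. All 9 macrophage markers were detected and had a fitted difference above 0 (median log2 1.76, and 1.12 without KO jejunum m1 and KO colon t4). None of them passed edgeR's test, while DESeq2 put 4 of the 9 past its threshold (3.85% of genes). The part of these markers in the ligand values was not tested. The neutrophil marker sum ran likewise from 10.5 to 37.8 CPM in KO jejunum and from 0.986 to 4.89 CPM in WT jejunum.

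KO colon t4 carried the ligands of the neutrophil receptor Cxcr2 at levels seen in no other library. Cxcl2 was at 276 CPM there against 0.521 and 0.405 CPM in KO colon m1 and t6 and at most 1.88 CPM in any other library. Cxcl3 was at 123 CPM against at most 0.249, Cxcl5 at 67.5 against at most 0.812, and Cxcl1 at 66.9 against at most 5.27. These 4 genes lie between 90759360 and 90905938 on chromosome 5 with Cxcl15, which was counted in 1 library only. The receptor Cxcr2 was at 51.4 CPM in this library and at most 3.06 CPM elsewhere. Ccl3 and Ccl4, CC ligands made by activated macrophages, were at 50.3 and 8.40 CPM against at most 2.44 and 0.838. Among tested members 6 of 47 were at least 5 times the highest other library there, as were 0.388% of all genes tested. Cxcl3 was also past that fold but could not be tested, since the filter on low counts asks for reads in several libraries.

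The same library held other inflammatory genes. Monocyte ligands Ccl2 and Ccl7 were at 83.2 and 68.0 CPM, which was 2.02 and 3.71 times the highest other library, KO jejunum m1 in both cases. Ccr1, the receptor of Ccl3, Ccl6 and Ccl9, was at 57.4 CPM. The 5 neutrophil markers summed to 574 CPM, against 0.986 to 41.2 CPM in the other 11 libraries, with S100a8 at 111, S100a9 at 250, Csf3r at 114 and Retnlg at 86.6 CPM. The fifth marker, Ly6g, a surface protein of mouse neutrophils, was at 11.6 CPM there, below 16.9 CPM in KO colon m1 and 35.5 CPM in WT colon t6. In the colon fit 4 of the 5 were above 0 and 1 below, and 0 passed edgeR's test. S100a8 had no count in 3 of the other libraries. The 4 mast cell markers summed to 129 CPM against at most 6.08 CPM, of which Hdc, the histamine-forming enzyme, made up 128.9 CPM and Cpa3, Mcpt4 and Ms4a2 0.139 CPM each. The T lymphocyte markers summed to 10.8 CPM, inside the range of 8.10 to 24.7 CPM. The 9 macrophage markers summed to 1978 CPM, against 508 to 848 CPM in the other colon libraries and 2392 CPM in KO jejunum m1. The 8 fibroblast markers summed to 10962 CPM there against 2259 to 6339 CPM, and the smooth muscle sum of 34795 CPM was the lowest of the 12. The part of these cells in the chemokine values was not tested. With this library the fitted colon differences were 9.49 (SE 2.62) for Cxcl2, 6.60 (SE 2.33) for Cxcr2, 5.69 (SE 2.11) for Cxcl5, 5.06 (SE 1.58) for Cxcl1, 4.23 (SE 1.72) for Ccl3, 3.47 (SE 1.52) for Ccl2 and 3.09 (SE 1.21) for Ccl4, on the log2 scale. Without it they were 1.89 for Cxcl2 and 1.12 for Cxcl1, and the other 5 turned below 0: -0.27, -0.55, -1.33, -0.19 and -0.10 in the order Cxcr2, Cxcl5, Ccl3, Ccl2, Ccl4. No call is lost, since none of the 7 passed with it (edgeR adjusted p = 0.151 to 0.329).

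**Figure D3:**
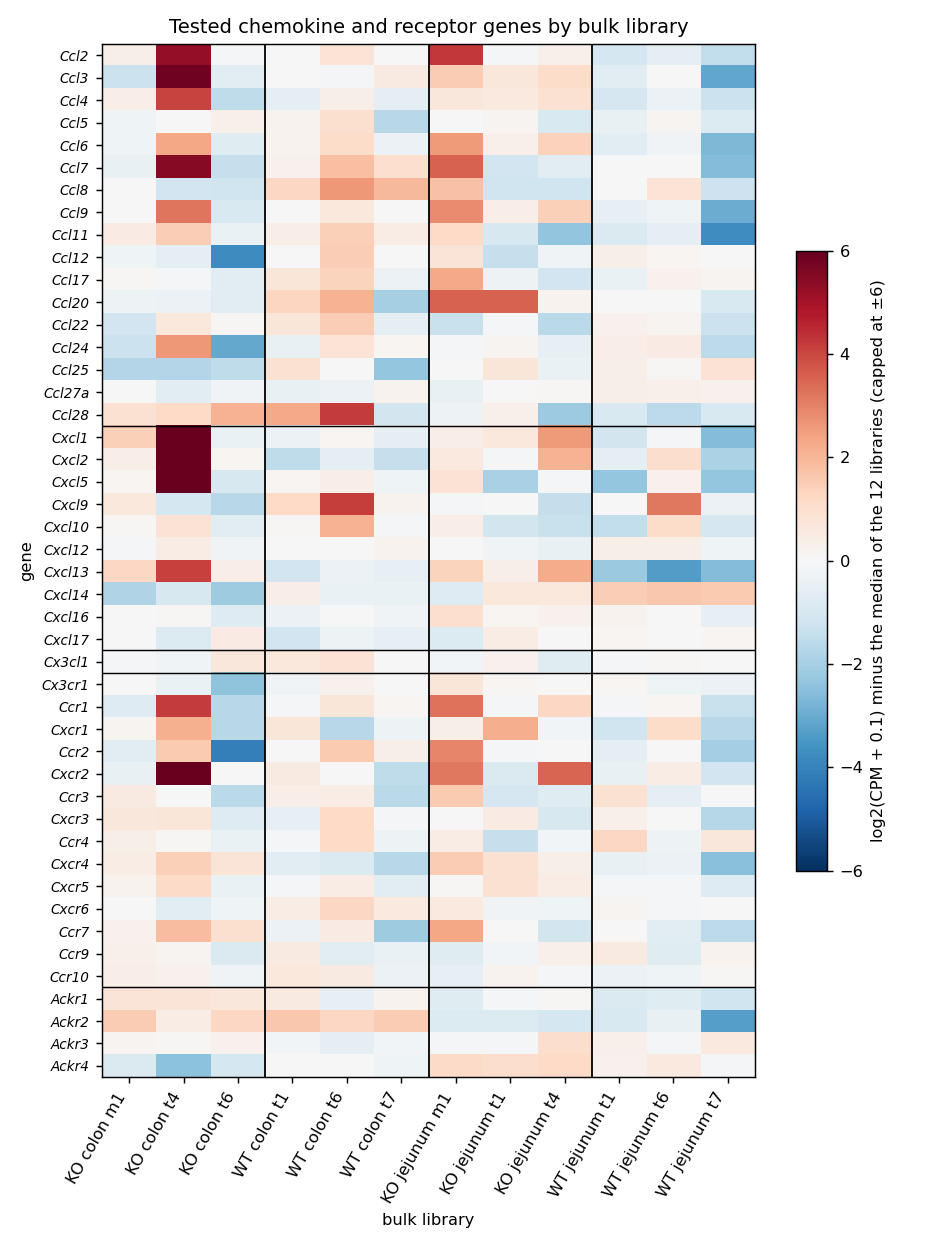
log2(CPM + 0.1) of tested genes in each bulk library, minus the median of the 12 libraries and capped at ±6; rows are genes by family, columns libraries, lines part the groups and families. KO colon t4 is the highest library for 17 of 47 genes, WT colon t6 for 10 and KO jejunum m1 for 9.

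KO jejunum m1 was at least 2 times the highest other jejunum library for 10 of 47 members (5.96% of all genes tested). It had Ccl7 at 18.3 CPM against at most 1.51 in the other jejunum libraries, Ccr2 at 71.3 against at most 9.71 and Ccr1 at 30.2 against at most 7.36. Cxcl2 and Cxcl5 were at 0.609 and 0.812 CPM there, and the neutrophil marker sum was 37.8 CPM. The library was thus high for genes of the monocyte axis Ccl2, Ccl7 and Ccr2 without the Cxcr2 ligands of KO colon t4. It was also the library with the highest macrophage marker sum of all 12, followed by KO colon t4.

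The comparison of WT colon with WT jejunum describes the tissues without the KO label. With edgeR 0 of 47 members passed (1.56% of all genes), and 7 of 47 had an unadjusted p below 0.05 (13.1% of all genes tested). The smallest p was that of Ackr2, which scavenges inflammatory CC chemokines and is known from lymphatic endothelium (chromosome 9, 121898355 to 121911074, plus strand). It was at 10.2, 7.89 and 9.48 CPM in WT colon t1, t6 and t7 against 1.66, 2.36 and 0.240 in WT jejunum t1, t6 and t7, without overlap. The log2 difference was 2.69 (SE 0.61, edgeR adjusted p = 0.0539), and 7 of 20 alternatives put it past the threshold, with adjusted p from 0.000138 to 0.233. The KO libraries, which this contrast does not use, were at 9.55, 4.48 and 7.72 CPM in colon and 1.78, 1.81 and 1.52 CPM in jejunum, likewise without overlap. The 6 lymphatic endothelial markers summed to 374 to 507 CPM in WT colon and 262 to 304 CPM in WT jejunum. Of them 1 rose in colon with edgeR, and 5 had a fitted difference above 0 (median log2 1.90). DESeq2 put all 6 past its threshold (5.02% of genes). The part of these markers in the Ackr2 difference was not tested.

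Cxcl14 was lower in WT colon than in WT jejunum by the values given above (log2 -1.64, SE 0.40, edgeR adjusted p = 0.0757). It passed in 6 of 20 alternatives, with adjusted p from 0.00172 to 0.216. Ackr1 was at 9.02, 4.34 and 7.34 CPM in WT colon against 3.35, 3.70 and 2.69 in WT jejunum. Its groups did not overlap (log2 1.09, SE 0.31, edgeR adjusted p = 0.132), and the 3 KO colon libraries at 10.7, 10.9 and 9.95 CPM were above all 9 others. Ccl28, a mucosal epithelial ligand of Ccr10 and Ccr3, was at 13.04, 49.9 and 1.17 CPM in WT colon t1, t6 and t7 against 1.36, 0.816 and 1.33 in WT jejunum. WT colon t7 lay within the jejunum range, so the groups overlapped (log2 4.19, SE 1.11, edgeR adjusted p = 0.106), and without that library the difference passed (log2 4.69, edgeR adjusted p = 0.0278). The values of Ccl28 ran in the order of the epithelial marker sums in WT colon, 1679, 3381 and 80.2 CPM in t1, t6 and t7. Cxcl13 was higher in WT colon (log2 2.22, SE 0.92, edgeR adjusted p = 0.323), with its groups apart. DESeq2 called Ackr1, Ackr2, Ccl28, Ccr8 and Cxcl14, that is 5 of 43 (5.02% of genes), and voom Ackr2 and Cxcl14 (2 of 47, 1.68% of genes). Ccr8, lower in colon, had no count in WT colon and 8, 6 and 4 counts in WT jejunum t1, t6 and t7. It did not pass the filter on low counts, so edgeR did not test it. The WT groups did not overlap for 13 of 47 members (22.9% of all genes tested), 9 higher in colon (11.2%) and 4 lower (11.7%). The fitted difference was above 0 for 33 of 47 (54.3% of all genes tested).

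**Figure D4:**
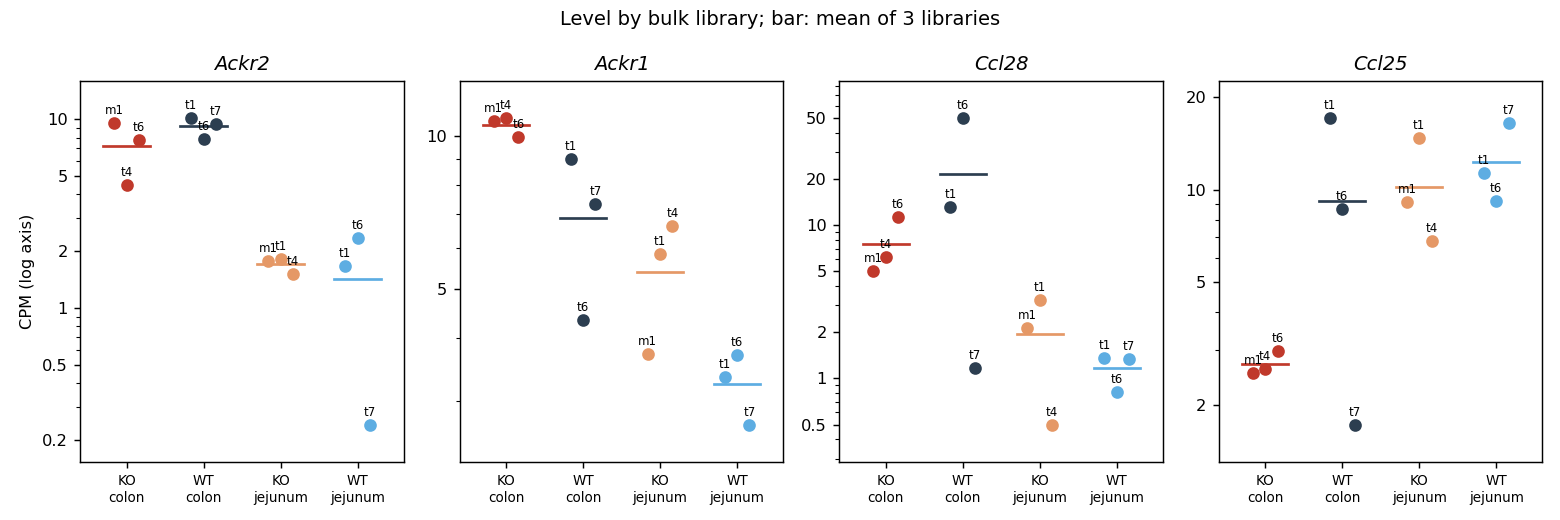
CPM (log axis) of Ackr2, Ackr1, Ccl28 and Ccl25 in each bulk library; points are libraries with tags, bars are means of 3. Ackr2 is higher in all 6 colon than in all 6 jejunum libraries, and WT colon t7 is the lowest colon library for Ccl28 (1.17) and Ccl25 (1.72).

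The remaining ligand and receptor pairs gave no difference past the test, and their levels were low or overlapped. Cx3cl1, a membrane-bound ligand, was at 18.9 to 35.2 CPM in KO colon and 21.7 to 39.4 CPM in WT colon, and its receptor Cx3cr1 of macrophages at 1.29 to 7.34 and 6.30 to 8.88 CPM. Ccl5 was between 0.936 and 6.37 CPM in all libraries. Ccl11 was at 15.6, 30.9 and 8.20 CPM in KO colon against 14.5, 29.3 and 14.7 in WT colon, while its receptor Ccr3 reached at most 0.812 CPM. Ccl17 and Ccl22, ligands of Ccr4, reached 1.47 and 1.29 CPM at most, and Ccr4 itself 0.516 CPM. Cxcr5, the receptor of Cxcl13, was at 0.684 to 2.15 CPM in KO colon against 0.546 to 1.32 CPM in WT colon, and at 0.964, 1.81 and 1.29 CPM in KO jejunum against 0.847, 0.845 and 0.506 in WT jejunum. In jejunum the Cxcr5 groups were just apart (log2 0.90, SE 0.51). Ccr7, which guides dendritic cells and T lymphocytes, overlapped in both tissues, and its ligands Ccl19 and Ccl21a had at most 0.295 and 0.0868 CPM.

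Other genes of the pathway were taken from 4 lists. Of 33 tested inducers and transcription factors upstream of chemokine genes, 2 rose in KO colon, Cebpb and Cebpd, which encode C/EBP factors of the inflammatory response, and none fell (0.388% of all genes tested passed). Cebpd was at 477, 691 and 440 CPM in KO m1, t4 and t6 against 104, 75.2 and 72.1 in WT t1, t6 and t7 (log2 2.68, SE 0.47, edgeR adjusted p = 0.0404). Cebpb was at 126, 270 and 109 CPM against 38.8, 34.6 and 40.3 (log2 2.15, SE 0.39, edgeR adjusted p = 0.0433). Without KO colon t4 neither passed (log2 2.45 and 1.63, edgeR adjusted p = 0.0868 and 0.0768), although their KO and WT libraries do not overlap. Cebpb passed again without KO colon t4 and KO jejunum m1 together (edgeR adjusted p = 0.0410), and Cebpd did not (0.0713). In colon 28 of the 33 had a fitted difference above 0, as had 50.3% of all genes tested (median 0.75, and 0.19 without KO colon t4 and KO jejunum m1), and in jejunum 29 of 33, against 51.5% of all genes (median 0.64, and 0.54 without them). In jejunum 0 of the 33 passed edgeR's test, where 0.215% of all genes passed. DESeq2 put 6 of the 33 past its threshold in colon (4.53% of genes) and 4 in jejunum (3.85%). Il1b, an NF-kB target and inducer, was at 273 CPM in KO colon t4 and at most 11.2 CPM elsewhere, the same library as the Cxcr2 ligands. Nfkbia, an inhibitor that NF-kB itself induces, was at 106, 291 and 153 CPM in KO colon against 65.7, 82.8 and 58.1 in WT colon (log2 1.41, SE 0.38, edgeR adjusted p = 0.144).

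Of 29 tested genes of receptor signalling and migration 1 passed between KO and WT colon, where 0.388% of all genes passed. This was Dpp4, lower in KO, a peptidase that trims the ends of chemokines such as Cxcl12. It was at 16.2, 12.4 and 17.1 CPM in KO m1, t4 and t6 against 58.1, 68.1 and 33.9 in WT t1, t6 and t7, with no overlap (log2 -1.81, SE 0.30, edgeR adjusted p = 0.0326). It did not pass without KO colon t4 (log2 -1.68, edgeR adjusted p = 0.0842). In jejunum 0 of 29 passed edgeR's test (0.215% of all genes tested). DESeq2 put 6 of the 29 past its threshold in colon (4.53% of genes) and 1 in jejunum (3.85%). Between WT colon and WT jejunum 1 of 29 passed (1.56% of all genes tested). This was Itga4, an integrin chain of migrating leukocytes, higher in colon (log2 1.26, SE 0.24, edgeR adjusted p = 0.0280). With DESeq2, 3 of the 29 passed between these tissues (5.02% of genes). None of 7 tested chemokine system genes that the symbol rule misses passed in any contrast, nor did any of 5 genes of phagocyte recruitment and growth. Of the former, Pf4, the platelet chemokine Cxcl4, was at 47.2 CPM in KO colon t4 and at 3.47 to 9.05 CPM in the other libraries.

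The nuclei of colon show which cell classes carry the transcripts. From 3476 WT and 2164 KO barcodes, 2861 and 1788 nuclei were kept, with medians of 1569 and 1873.5 unique molecular identifiers (UMIs). There were 11 barcodes in both libraries. The genes described here gave 1315 UMIs in WT and 1676 in KO nuclei, 48 of 59 names had a UMI, and 26 had at least 20. Clusters were made without these genes and named from marker lists. Of the 26, 11 had their highest level in cluster 10. The share of all genes that lead in this or another class was not determined, so such counts are description only. Cluster 10 is macrophage-like by 9 of 9 markers, although Csf3r, a receptor also of neutrophils, is among its 10 leading genes. Among the 11 genes were the monocyte ligands Ccl2, Ccl7, Ccl8, Ccl9 and Ccl12, the receptors Ccr1, Ccr2 and Cx3cr1, and Cxcl13 and Cxcl16. The leads of Ccl2, Ccl7, Ccl8 and Cxcl13 rest on 7, 6, 5 and 8 UMIs in the cluster over both libraries, against 109 for Ccr2, 54 for Cxcl16, 46 for Cx3cr1, 37 for Ccl12, 20 for Ccr1 and 19 for Ccl9. Ccl2 had more UMIs outside the cluster, 2 WT and 16 KO in smooth muscle-like and 0 and 12 in fibroblast-like nuclei, and in KO its fibroblast-like level of 0.268 per 10000 UMIs (95% exact Poisson interval 0.138 to 0.468) overlaps that of cluster 10, 0.240 (0.0880 to 0.522). With 1 library per genotype there is no test, and intervals for nuclei cover counting error only.

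Ccr2, the monocyte receptor of Ccl2 and Ccl7, had 21 UMIs in 11 of 63 WT nuclei and 88 UMIs in 39 of 169 KO nuclei of cluster 10, or 2.30 (95% exact Poisson interval 1.42 to 3.51) and 3.52 (2.82 to 4.34) per 10000 UMIs. The intervals overlap. In smooth muscle-like nuclei Ccr2 had 1 and 6 UMIs in 920 WT and 436 KO nuclei. Smooth muscle-like nuclei were the deeper ones, with medians of 1793 and 2313.5 UMIs against 836 and 850 in cluster 10. Cluster 10 held 2.20% of WT and 9.45% of KO nuclei, a difference between single libraries that was not tested. In bulk colon the macrophage marker sum was 653, 1978 and 508 CPM in KO m1, t4 and t6. In bulk WT colon it was 667, 848 and 831 CPM in t1, t6 and t7, so KO m1 and t6 lay below all WT libraries. Over all nuclei Ccr2 came to 0.0572 per 10000 in WT and 0.207 in KO. Cx3cr1 was at 1.31 (0.678 to 2.29) and 1.36 (0.942 to 1.90) per 10000 in the cluster.

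Of the other 15 genes, 3 each led in lymphatic endothelial-like, blood endothelial-like, fibroblast-like and epithelial-like nuclei, and 1 each in interstitial cell of Cajal-like, B lymphocyte-like and T lymphocyte-like nuclei. The last is Ccl27a, with 1 UMI there. The leads of Ackr1 and Cxcl10 in blood endothelial-like nuclei rest on 3 and 4 UMIs over both libraries. That of Ackr2 in lymphatic endothelial-like nuclei rests on 4. Ccl21a, the lymphatic ligand of Ccr7, had 69 WT and 41 KO UMIs in lymphatic endothelial-like nuclei, or 7.36 (5.72 to 9.31) and 3.38 (2.43 to 4.59) per 10000. Bulk libraries gave Ccl21a at most 0.0868 CPM, although the 6 lymphatic markers were present in each. Near-identical copies of this gene could take or lose reads in the counting, so its level is uncertain. Cxcl12 led in blood endothelial-like nuclei with 7 UMIs in each library, Ccl28 in epithelial-like nuclei with 29 and 33, and Ccl11 in fibroblast-like nuclei with 6 and 4. Cxcr5 led in B lymphocyte-like nuclei with 5 and 7. Ccl6 was split: 60 WT and 10 KO UMIs in epithelial-like nuclei, but 2 and 22 in cluster 10. Ccl25 had 299 and 239 UMIs spread over nearly all classes, with 67 and 52 in smooth muscle-like nuclei and 50 and 12 in epithelial-like ones, and it overlaps Elavl1, so it marked no class.

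**Figure D5:**
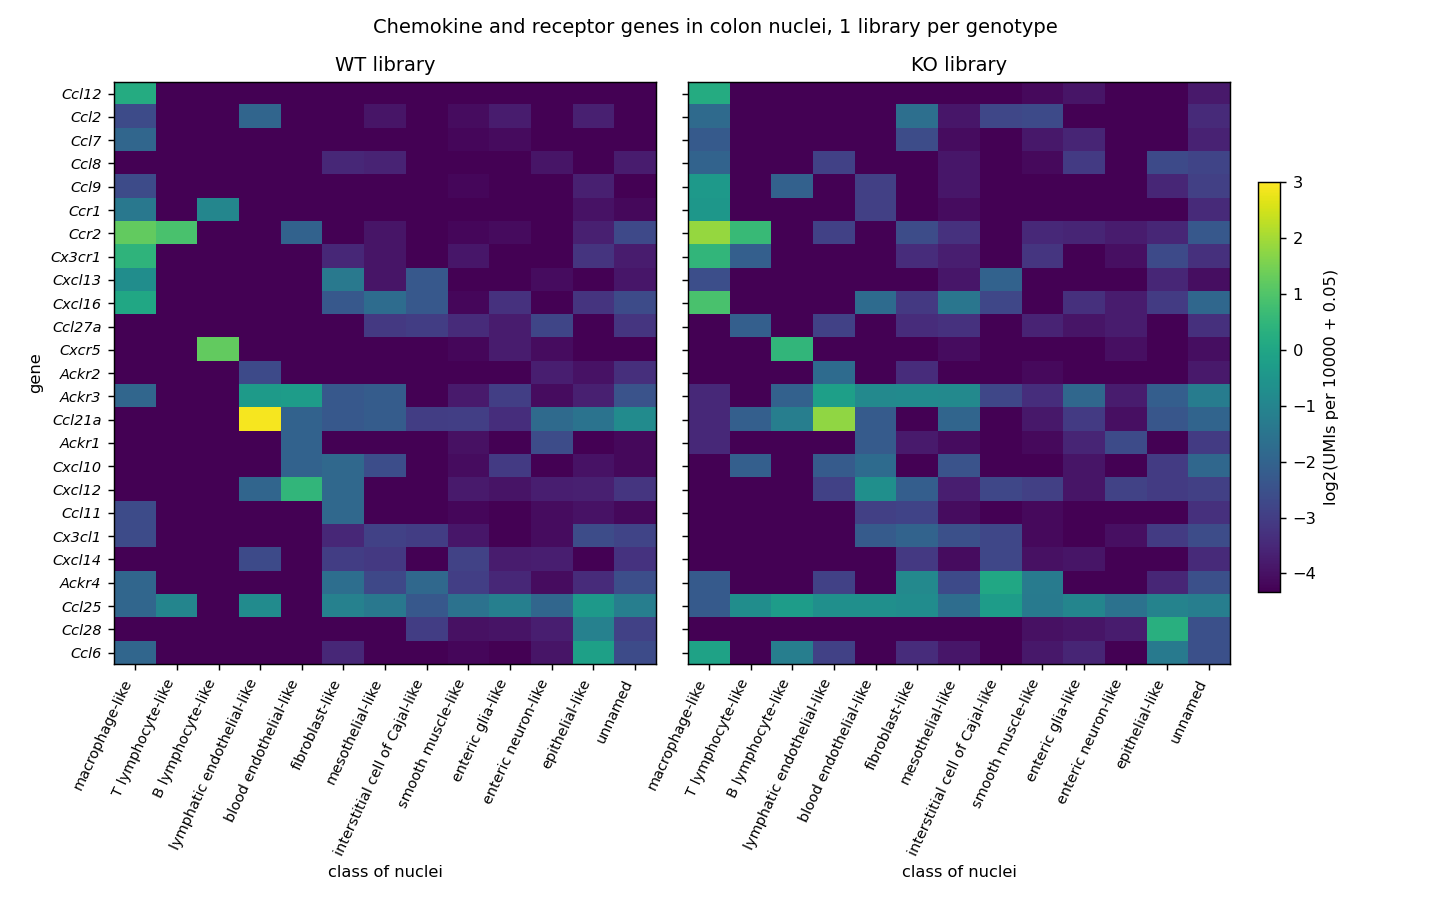
log2(UMIs per 10000 + 0.05) of genes with at least 20 UMIs by class of nuclei (columns), in the WT (left) and KO (right) library. Cluster 10, the macrophage-like one, leads for 11 genes (share over all genes not determined), and lymphatic endothelial-like nuclei for Ccl21a with 7.36 in WT and 3.38 in KO.

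Genes described above for bulk colon, none of which passed edgeR's test there, were looked up by class. Ackr4 had its highest level in interstitial cell of Cajal-like nuclei, with 3 UMIs in WT and 10 in KO, or 0.226 (0.0466 to 0.660) and 0.976 (0.468 to 1.79) per 10000. It had 18 UMIs in WT and 54 in KO smooth muscle-like nuclei, or 0.0784 (0.0465 to 0.124) and 0.360 (0.270 to 0.470) per 10000, and 7 and 22 in fibroblast-like nuclei. Over all nuclei it was at 0.0775 in WT and 0.179 in KO, higher in the KO library, whereas bulk KO colon lay below bulk WT colon. Cxcl14 led in fibroblast-like nuclei on 2 WT and 3 KO UMIs. It had 20 UMIs in WT and 2 in KO smooth muscle-like nuclei, or 0.0871 (0.0532 to 0.134) and 0.0133 (0.00161 to 0.0482) per 10000, in the direction of bulk colon. The largest group of WT smooth muscle-like nuclei fell in cluster 0 (451 of 920) and the largest group of KO in cluster 3 (194 of 436), so these ratios span different clusters. Cxcl13 had 21 UMIs in WT, 9 of them in 3 fibroblast-like nuclei and 5 in 1 nucleus of cluster 10, and 9 in KO nuclei, which is not the direction of bulk colon. Cxcr4 had 2 WT and 14 KO UMIs, the latter in 7 named classes and the unnamed cluster, with 4 in cluster 10. Ackr3 led in lymphatic endothelial-like nuclei with 7 WT and 10 KO UMIs, or 0.746 (0.300 to 1.54) and 0.825 (0.395 to 1.52) per 10000. It had 10 WT and 57 KO UMIs in mesothelial-like nuclei, or 0.167 (0.0800 to 0.307) and 0.49995 (0.379 to 0.648) per 10000. The larger part of the WT ones lay in cluster 1 (293 of 403) and of the KO ones in cluster 4 (211 of 363). Cxcl2, Cxcl1 and Cxcr2 had 0, 1 and 0 UMIs in WT and 3, 3 and 5 in KO, so the levels of bulk KO colon t4 were not met in these nuclei. A count of 0 allows up to 0.105% of WT nuclei with a UMI.

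Promoter windows were searched for motifs. RefSeq windows of 300 bases (250 before and 50 after the start) were found for 44 of 60 symbols, in 51 windows. The NF-kB consensus, searched on both strands, was in 12 windows (23.5%), against 9.48% of 19912 windows of protein-coding genes. In the stretches shown above it starts at -71 in Cxcl1, -97 in Cxcl2 and -73 in Cxcl3, counted from the gene start. With overlapping matches counted singly, Cxcl10 has 3 matches, and Ackr2, Ccl1, Ccr6, Cxcl1, Cxcl2 and Cxcl3 have 2 each. The 2 matches overlap in 1 run in each of Ccl1, Ccr6, Cxcl1, Cxcl2 and Cxcl3, as do 2 of the 3 in Cxcl10. Those of Ackr2 lie apart. The windows of Cxcl13, Cxcl14, Cxcr4 and Ackr4 have none. TATAAA was in 27.5% of the windows against 11.9% of all, TGANTCA, an AP-1-type motif, in 19.6% against 6.96%, and an interferon-type motif (GAAA, any 2 bases, GAAA) in 5.88% against 3.40%. The Cxcl14 window holds a match of the latter. These are matches of letters and not measured sites.

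Regions of open chromatin, as listed by the authors in each library of nuclei, touched the windows of few of these genes. In WT they were Ccl25, Ccl27a, Ccr1l1, Cxcl1 and Cxcl10 (5 of 44, 11.4%, against 53.7% of genes with a window), and in KO Ccl25, Ccr1l1, Cxcl1 and Cxcl14 (4 of 44, 9.09%, against 46.1%). The regions at Ccl25 and Ccl27a touched only windows of an upstream start, and the window of the downstream start held none. These genes overlap Elavl1 and Il11ra1, so the regions cannot be assigned to either gene. At Cxcl1 the region was counted in 38 of 2861 WT and 30 of 1788 KO nuclei, and in smooth muscle-like nuclei in 11 of 920 and 13 of 436. At Cxcl14, whose transcript was lower in the KO library, a region was listed in KO only, with a count in 23 of 1788 nuclei. Regions were called separately in each library, so a region listed in 1 of them does not show a difference.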

How the data were processed

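Gene counts of the 12 bulk libraries were analysed as the authors deposited them. The submitters' processing notes name build GRCm38/mm10, STAR 2.0.4b, Subread, featureCounts 1.4.5, edgeR and Cell Ranger, with no roles. No source used here says whether counting used strand. Among further genes described, Ccl2, Ccl6, Cx3cr1, Cxcl16 and Cxcr5 overlap other gene models, so their counts are uncertain to that extent. Of 40757 lines, 276 repeated a gene identifier and were dropped. Counts from 1 to 20 were even in 68.1% to 70.6% of cases, so fragments may have been counted by both ends, which was not tested. The counts of replicate libraries differed beyond counting error, with a chi-square of 57.1 to 271 for each gene on average.

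Main tests used edgeR 4.0.16 (quasi-likelihood, TMM scaling, expression filter, all 12 libraries in 1 fit, Benjamini-Hochberg adjustment over 20886 genes, threshold 0.05) in R 4.3.3; DESeq2 1.42.0 and limma voom 3.58.1 were alternatives. The code was tested on simulated data. A DESeq2 adjusted p that the tool withholds was left out.

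The deposited nuclei counts come from cellranger-arc 2.0.0, per the file headers. All gene values were even and were divided by 2. Nuclei with at least 300 genes and at most 10% mitochondrial UMIs were kept. Scrublet marked 1 nucleus in each library, so doublets were in effect not removed. Clusters (scanpy 1.11.5, leidenalg 0.10.2) were made without the genes described. Genes were named by rank of p (5 per contrast), level (10 genes), at least 20 UMIs in nuclei, or an unadjusted p below 0.05, and other genes were chosen after their values were seen. Members and lists were chosen with earlier results of these data known. Whether a tag marks the same mouse in colon and jejunum is not known. With group means taken off, same-tag libraries correlated at r from -0.163 to 0.100 over 5 pairs. This cannot settle it, since all other differences between libraries enter the correlation. The values of 1 gene of the family are not reported here, although it is counted in the totals.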

Additional observations from a re-analysis of the deposited data

Results flagged for a closer look

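For Ackr4, the atypical receptor that scavenges Ccl19, Ccl21 and Ccl25, the difference between KO and WT differed in direction between the tissues. All 3 KO colon libraries lay below all 3 WT colon libraries, and all 3 KO jejunum libraries lay above all 3 WT jejunum libraries. The difference between the 2 genotype effects was -2.11 on the log2 scale (SE 0.47). It did not pass edgeR's test over all genes (adjusted p = 0.907) and passed with DESeq2 (adjusted p = 0.0308), and over 19 alternatives the value ran from -2.52 to -1.71. Among all genes tested 0.268% had opposite directions without overlap.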

How the results depend on the processing

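Among the named genes, 647 values kept their direction and side of the threshold under the alternatives, 33 moved past the threshold in the same direction and 10 reversed. For counts of chemokine and receptor genes past the threshold, 68 values stayed within 1.5 times the reported one and 17 moved. In colon the count was 7 with DESeq2 and 1 without KO colon t4 and KO jejunum m1 together, against 0. In jejunum it was 4 and 1, and for the difference between tissues 1 with DESeq2. Between WT colon and WT jejunum it was 1 with total counts, 1 without a filter, 5 with DESeq2, 2 with voom, 2 with the contrast's libraries alone and 2 without both libraries. Leaving out 1 library gave 0 to 1 in colon, 0 to 1 in jejunum and 0 to 2 between the WT tissues. The cause was not tested.

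The colon differences that reversed did so without KO colon t4, in which these genes were highest. Leaving out 1 library gave -0.19 to 4.07 for Ccl2, -1.33 to 4.85 for Ccl3, -0.10 to 3.71 for Ccl4, -0.55 to 6.31 for Cxcl5 and -0.27 to 7.34 for Cxcr2. Without KO colon t4 and KO jejunum m1 together they were -0.17, -1.31, -0.088, -0.54 and -0.25. With the tag as a replicate block, 0 members passed between WT tissues and 0 in the difference between tissues. KO and WT libraries of a tissue share fewer than 2 tags, so no paired fit of genotype was possible. Genes under about 1 CPM rest on few reads, which limits their differences.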
